A study of Mus musculus with 76 samples.

Results

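Skeletal muscle genes make up the subject here: 34 genes whose proteins build the contractile apparatus of striated muscle, handle its calcium or supply its energy. Their messages in a tumor lysate may come from muscle tissue carried with the tumor. The genes were taken from a list of gene symbols, each matched to 1 entry among the 55536 genes of the count table. At least 1 count was found for each of the 34, as for 34366 genes of the whole table. The source of these messages inside the specimens was not measured, and no sample of pure muscle was sequenced.

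The study asked how catalase, the enzyme that breaks down hydrogen peroxide, alters mouse tumors when it is held between the cells or made inside them. RNA came from 38 whole homogenized tumors of female BALB/c mice, grown under the skin of the flank and sequenced from the 3′ ends of transcripts as 2 technical libraries per tumor, 76 in all. The study left out some libraries of low depth that it did not name, while all 76 deposited ones are used here. Ages were given as a range of weeks for the study and not per group. CT26, a colon carcinoma line, gave 6 tumors injected with 20 µg of CAT-ABP on alum and 5 with alum alone. In CAT-ABP the enzyme carries an added peptide with affinity for alum, meant to hold it among the cells, and how much of it entered cells was not measured here. The mammary carcinoma line 4T1 gave 6 tumors with CAT-ABP on alum and 5 with alum alone. A lentivirally transduced line, 4T1-CAT, carries human catalase and GFP under a doxycycline-inducible promoter. It gave 5 tumors with CAT-ABP on alum and 5 with alum alone. The transduced 4T1-control line makes GFP only, and gave 6 tumors with alum alone. Mice with transduced tumors ate a doxycycline diet from day 4. Every one of the 7 groups, controls included, received 100 µg of alum into the tumor on day 6 and was harvested on day 8 by the sample labels, which differ from the day numbers in the text of the study. No group was left without an injection, so alum and the needle track were common to all.

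Skeletal muscle fibers are long, multinucleate cells packed with sarcomeres, in which myosin thick filaments pull on actin thin filaments. Calcium released from the sarcoplasmic reticulum binds troponin C on the thin filament and lets myosin act, and a pump then returns the calcium. Fast fibers and slow fibers use different myosin and troponin genes, and a thin muscle sheet, the panniculus carnosus, lies in mouse skin above the flank wall. A whole-tumor measurement reads RNA per lysate, so fewer muscle cells and less RNA per muscle cell cannot be told apart.

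Depth differed among tumors, which held 493044 to 9077549 counts each with a median of 4827387. By group the lowest, median and highest totals were 4135199, 5977654 and 9077549 for CT26 CAT-ABP + alum, 1972842, 5002683 and 7308877 for CT26 alum, 837403, 4980961 and 8543636 for 4T1 CAT-ABP + alum, 2713843, 4074219 and 6992462 for 4T1 alum, 4505755, 5339033 and 8709773 for 4T1-CAT CAT-ABP + alum, 2236452, 4998358 and 6862410 for 4T1-CAT alum and 493044, 3523254 and 4569427 for 4T1-control alum. Among single libraries the totals ran from 46233 to 6958625 with a median of 2075008, and 7 libraries lay under 0.25 of that median. Levels are given as CPM, counts scaled to a common library total with TMM factors, which are not divided by transcript length because each transcript is counted at its 3′ end. For a share of all counts the 95% Wilson interval is given, which covers counting error only. A count of 0 allows up to 3 counts in that tumor.

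Counts of muscle genes were found in every tumor, at low level: 34 members together took 134354 of 184886327 counts, or 0.0727%. Counts of 17 members were present in all 38 tumors, 17 were at 0 in at least 1 tumor, and 5 were at 0 in at least 10. Acta1, the actin of skeletal muscle, ranged from 38.9 to 425 CPM (median 126), and Ttn, the giant spring protein of the sarcomere, ranged from 6.47 to 95.3 CPM (median 23.8). Pvalb, a calcium buffer of fast fibers, was at 0 in 20 tumors, and Mb, the oxygen store myoglobin, in 17. The epithelial markers matched the tumor lines as labelled. They summed to 0.261% ± 0.0629 (SD, n = 5) of counts in 4T1 alum tumors and 0.00512% ± 0.000817 (SD, n = 5) in CT26 alum tumors.

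Muscle messages were shared unevenly among the 38 tumors. In CT26 alum tumors 1 to 5 the members summed to 0.173, 0.0281, 0.0997, 0.0468 and 0.0503% of counts. In 4T1-CAT alum tumors 1 to 5 they summed to 0.0893, 0.0870, 0.0824, 0.0611 and 0.164%. CT26 alum replicate 1 and 4T1-CAT alum replicate 5 were the 2 highest of the whole series. The 95% Wilson interval of CT26 alum replicate 1 was 0.170% to 0.177%, and that of 4T1-CAT alum replicate 5 was 0.159% to 0.170%. The lowest tumor, CT26 alum replicate 2, had 0.0281% with an interval of 0.0258% to 0.0305%. Highest and lowest differed 6.16-fold, and 8.98-fold with Eno3 set aside, and the intervals of those 2 tumors did not overlap. CT26 alum replicate 1 had the highest level of 18 members and 4T1-CAT alum replicate 5 of 6 members. In each technical replicate these were the 2 highest tumors. Libraries of a tumor differed by a median of 1.16-fold and at most 1.43-fold, in CT26 CAT-ABP + alum replicate 3, and the share was higher in technical replicate 1 in 35 of 38 tumors, by a median ratio of 1.15.

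In the other groups the muscle sum varied less. In the CT26 CAT-ABP + alum tumors it had a lowest of 0.0478, a median of 0.0669 and a highest of 0.0948%. Among 4T1 CAT-ABP + alum tumors it had a lowest of 0.0615, a median of 0.0715 and a highest of 0.0948%, and 4T1 alum tumors 1 to 5 had 0.0468, 0.0548, 0.0446, 0.0784 and 0.103%. Tumors of 4T1-CAT with CAT-ABP + alum, 1 to 5, had 0.0693, 0.0698, 0.0539, 0.0571 and 0.0798%. The 4T1-control alum tumors had a lowest of 0.0395, a median of 0.0514 and a highest of 0.0857%. As means the groups ran in the order 4T1-CAT alum 0.0968% ± 0.0393 (SD, n = 5), CT26 alum 0.0796% ± 0.0586 (n = 5), 4T1 CAT-ABP + alum 0.0763% ± 0.0139 (n = 6), CT26 CAT-ABP + alum 0.0678% ± 0.0169 (n = 6), 4T1-CAT CAT-ABP + alum 0.0660% ± 0.0105 (n = 5), 4T1 alum 0.0655% ± 0.0249 (n = 5) and 4T1-control alum 0.0566% ± 0.0162 (n = 6). Each neighboring pair in that order overlapped tumor by tumor. Eno3, the most abundant member, enters all of these sums. Without it the means were 0.0768% for 4T1-CAT alum, 0.0604% for CT26 alum, 0.0556% for 4T1 CAT-ABP + alum, 0.0493% for 4T1-CAT CAT-ABP + alum, 0.0474% for CT26 CAT-ABP + alum, 0.0472% for 4T1 alum and 0.0399% for 4T1-control alum, so 4T1-CAT CAT-ABP + alum then came before CT26 CAT-ABP + alum. Sequencing pools differed too: CT26 tumors and the 4T1 CAT-ABP + alum tumors were in pools 1 and 3, the transduced lines in pools 2 and 4, and 4T1 alum in both, with 0.0508% on average in the 2 tumors of pools 1 and 3 and 0.0754% in the 3 tumors of pools 2 and 4.

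**Figure D1:**
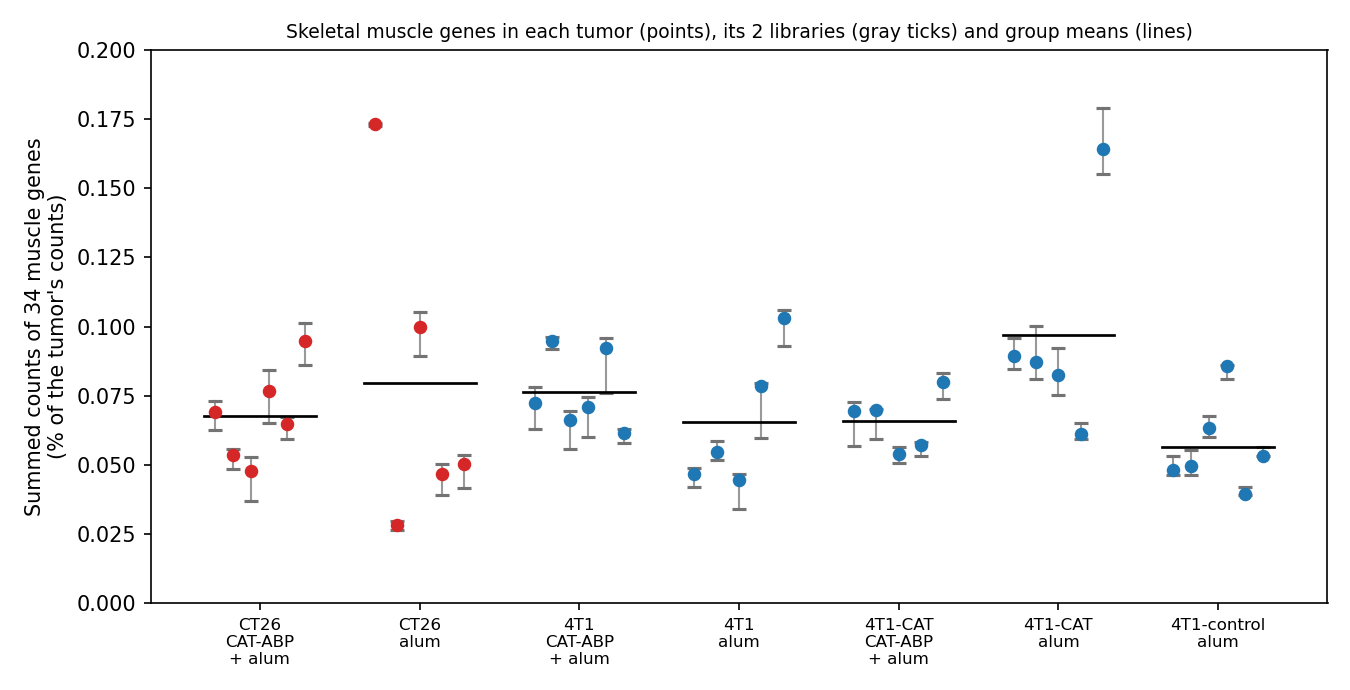
Summed counts of the 34 skeletal muscle genes as a percent of all counts, for each tumor (points) in the 7 groups, with its 2 technical libraries (gray ticks) and the group means (lines). CT26 alum replicate 1 (0.173%) and 4T1-CAT alum replicate 5 (0.164%) lie above the other 36 tumors.

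Myosin, the motor of the thick filament, was read from 7 members that averaged 0.00985% of counts per tumor. Myh4 encodes the heavy chain of the fastest fibers (ENSMUSG00000057003, chromosome 11, bases 67238029 to 67260446, plus strand; positions of genes are on GRCm38 with GENCODE M21 bounds). It ranged from 0 to 83.6 CPM (median 6.03) and was at 0 in 1 tumor. By group, Myh4 ranged 2.64 to 11.02 CPM in the CT26 CAT-ABP + alum tumors, 3.37 to 83.6 in CT26 alum, 5.31 to 12.6 in 4T1 CAT-ABP + alum and 2.00 to 15.4 in 4T1 alum. In the transduced lines it ranged 2.62 to 16.0 CPM with 4T1-CAT CAT-ABP + alum, 4.03 to 21.2 with 4T1-CAT alum and 0 to 3.74 with 4T1-control alum. The highest Myh4 level was in CT26 alum replicate 1. Myh1 and Myh2, the heavy chains of the other fast fiber classes, ranged from 2.18 to 21.8 CPM (median 6.99) and from 0 to 7.79 CPM (median 1.29). The 3 heavy-chain genes lie side by side within 89419 bases of chromosome 11 and are closely similar in sequence, so the split of counts among them is uncertain. Mylpf, the regulatory light chain of fast fibers (ENSMUSG00000030672, chromosome 7, bases 127208890 to 127214298, plus strand), ranged from 9.73 to 73.8 CPM (median 32.3). By group, Mylpf ranged 19.5 to 52.4 CPM in the CT26 CAT-ABP + alum tumors, 9.73 to 71.3 in CT26 alum, 20.3 to 40.3 in 4T1 CAT-ABP + alum and 20.2 to 52.3 in 4T1 alum. For the transduced lines it ranged 26.5 to 32.5 CPM with 4T1-CAT CAT-ABP + alum, 34.4 to 73.8 with 4T1-CAT alum and 24.0 to 55.0 with 4T1-control alum. Myl1, an essential light chain (ENSMUSG00000061816, chromosome 1, bases 66924295 to 66945404, minus strand), ranged from 5.84 to 124 CPM (median 25.8). Myosin-binding protein C of slow fibers, Mybpc1, ranged from 0.182 to 14.1 CPM (median 3.50), and that of fast fibers, Mybpc2, from 0 to 14.9 CPM (median 3.48).

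Thin filament genes carried the largest summed share of the 5 roles, 0.0355% of counts per tumor over 8 members. Acta1 (ENSMUSG00000031972, chromosome 8, bases 123891769 to 123894751, minus strand) gave 21.1% of all member counts, second to Eno3 with 26.1%. By group, Acta1 ranged 96.7 to 245 CPM in the CT26 CAT-ABP + alum tumors, 38.9 to 425 in CT26 alum, 89.1 to 202 in 4T1 CAT-ABP + alum and 61.8 to 267 in 4T1 alum. Among the transduced tumors it ranged 81.1 to 160 CPM with 4T1-CAT CAT-ABP + alum, 115 to 346 with 4T1-CAT alum and 48.9 to 208 with 4T1-control alum. Tnnc2, the calcium sensor of fast troponin (ENSMUSG00000017300, chromosome 2, bases 164777161 to 164779967, minus strand), ranged from 28.7 to 345 CPM (median 85.6). By group, Tnnc2 ranged 72.3 to 209 CPM in the CT26 CAT-ABP + alum tumors, 28.7 to 345 in CT26 alum, 76.7 to 122 in 4T1 CAT-ABP + alum and 37.2 to 192 in 4T1 alum. In tumors of transduced cells it ranged 59.6 to 86.2 CPM with 4T1-CAT CAT-ABP + alum, 98.1 to 295 with 4T1-CAT alum and 34.2 to 146 with 4T1-control alum. Both genes peaked in CT26 alum replicate 1 and were lowest in CT26 alum replicate 2. Fast troponin I and T are made by Tnni2 and Tnnt3, both on chromosome 7 with 54426 bases between them. Tnni2 ranged from 10.2 to 82.5 CPM (median 36.9) and Tnnt3 from 4.86 to 58.0 CPM (median 30.4). Neb, the nebulin ruler along the thin filament, ranged from 6.73 to 47.6 CPM (median 19.9). The slow-fiber troponins were scarce: Tnnt1, Tnni1 and Tnnc1 together took 0.000423% of counts per tumor. The 11 fast-fiber members took 0.0244%, but these hold myosin, calcium and Z disc genes beside the fast troponins, so the sets are unlike. Among fast troponins alone the medians were 85.6 CPM for Tnnc2, 36.9 for Tnni2 and 30.4 for Tnnt3. By group, Tnnt1 ranged 0.489 to 2.49 CPM in the CT26 CAT-ABP + alum tumors, 0.486 to 2.64 in CT26 alum, 0.397 to 1.72 in 4T1 CAT-ABP + alum and 0.341 to 1.27 in 4T1 alum. With transduced cells it ranged 0.201 to 1.85 CPM with 4T1-CAT CAT-ABP + alum, 0.668 to 1.96 with 4T1-CAT alum and 0 to 2.18 with 4T1-control alum. Tnni1 ranged from 0 to 1.81 CPM (median 0.601). Its group ranges were 0.486 to 1.81 CPM for CT26 CAT-ABP + alum, 0.486 to 1.76 CPM for CT26 alum, 0.382 to 1.19 CPM for 4T1 CAT-ABP + alum, 0 to 1.37 CPM for 4T1 alum, 0.168 to 0.802 CPM for 4T1-CAT CAT-ABP + alum, 0.307 to 0.835 CPM for 4T1-CAT alum and 0 to 0.935 CPM for 4T1-control alum. Tnnc1, also the troponin C of heart, ranged from 0.862 to 6.55 CPM (median 2.37).

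The Z disc and scaffold were read from 7 members that averaged 0.00521% of counts. Ttn (ENSMUSG00000051747, chromosome 2, bases 76703980 to 76982547, minus strand) gave 55.6% of them. By group, Ttn ranged 15.0 to 49.4 CPM in the CT26 CAT-ABP + alum tumors, 10.6 to 95.3 in CT26 alum, 22.8 to 63.8 in 4T1 CAT-ABP + alum and 6.91 to 35.7 in 4T1 alum. Across the transduced lines it ranged 23.5 to 39.9 CPM with 4T1-CAT CAT-ABP + alum, 16.9 to 75.0 with 4T1-CAT alum and 6.47 to 24.0 with 4T1-control alum. Des, the intermediate filament desmin that ties Z discs together, ranged from 0 to 4.94 CPM (median 1.45) and was at 0 in 3 tumors. By group, Des ranged 0 to 2.19 CPM in the CT26 CAT-ABP + alum tumors, 0.293 to 4.94 in CT26 alum, 0.397 to 2.86 in 4T1 CAT-ABP + alum and 0.287 to 3.41 in 4T1 alum. For tumors of transduced cells it ranged 1.01 to 2.53 CPM with 4T1-CAT CAT-ABP + alum, 0.389 to 4.32 with 4T1-CAT alum and 0 to 1.92 with 4T1-control alum. Xirp2, an actin-binding repeat protein, ranged from 1.46 to 42.1 CPM (median 12.1). Actn2 and Actn3, the alpha-actinins that cross-link actin at the Z disc, ranged from 1.46 to 15.6 CPM (median 3.88) and from 0 to 5.73 CPM (median 1.76). Tcap, which caps titin, was at 0 in 11 tumors and reached 2.96 CPM. Myoz1, a calcineurin-binding Z disc protein, was at 0 in 13 tumors and reached 2.17 CPM. Both maxima were in CT26 alum replicate 1.

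Calcium handling gave the smallest share, 0.00119% of counts per tumor over 6 members. Ryr1, the release channel of the sarcoplasmic reticulum (ENSMUSG00000030592, chromosome 7, bases 29003344 to 29125179, minus strand), was counted in every tumor and ranged from 0.910 to 9.43 CPM (median 2.58). Trdn, the triadin anchor beside that channel, ranged from 0.341 to 17.5 CPM (median 2.66). Atp2a1, the pump that returns calcium, ranged from 0 to 20.4 CPM (median 1.93). Casq1, which stores calcium in the reticulum, ranged from 0 to 10.5 CPM (median 1.40). Pvalb reached 3.56 CPM, and Cacna1s, the voltage sensor of the fiber surface, reached 0.802 CPM with 21 tumors at 0. Those 2 genes had a median of 0.

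Energy genes averaged 0.0205% of counts, of which Eno3, the muscle enolase of glycolysis, made up 92.0%. Eno3 ranged from 104 to 356 CPM (median 183) and had its maximum in CT26 alum replicate 5. Ckm, the creatine kinase that buffers ATP (ENSMUSG00000030399, chromosome 7, bases 19404776 to 19422841, plus strand), ranged from 0 to 20.6 CPM (median 3.14). By group, Ckm ranged 2.77 to 7.52 CPM in the CT26 CAT-ABP + alum tumors, 1.17 to 20.6 in CT26 alum, 1.34 to 7.16 in 4T1 CAT-ABP + alum and 1.44 to 10.5 in 4T1 alum. Within the transduced lines it ranged 1.70 to 4.08 CPM with 4T1-CAT CAT-ABP + alum, 2.01 to 7.07 with 4T1-CAT alum and 0 to 3.196 with 4T1-control alum. Cox6a2, a muscle and heart subunit of cytochrome oxidase (ENSMUSG00000030785, chromosome 7, bases 128205435 to 128206387, minus strand), was counted in every tumor and ranged from 1.29 to 14.2 CPM (median 5.79). Pygm, which breaks down glycogen, ranged from 0 to 8.30 CPM (median 1.64), and Pgam2, a glycolytic mutase, ranged from 0 to 11.7 CPM (median 2.73). Mb reached 4.77 CPM in 4T1 CAT-ABP + alum replicate 4. Its group ranges were 0 to 0.806 CPM for CT26 CAT-ABP + alum, 0 to 0.988 CPM for CT26 alum, 0.502 to 4.77 CPM for 4T1 CAT-ABP + alum, 0 to 1.08 CPM for 4T1 alum, 0 to 1.53 CPM for 4T1-CAT CAT-ABP + alum, 0 to 2.45 CPM for 4T1-CAT alum and 0 to 1.07 CPM for 4T1-control alum.

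Comparisons between groups used edgeR on all genes that passed a filter on low counts, with Benjamini-Hochberg adjusted p at most 0.05 as the threshold and fold changes on the log2 scale. A member that passes the filter through high counts in few tumors is more likely to be tested, so counts over tested members describe and do not test. For 57 combinations of a named member and a comparison, a two-sided exact permutation test of mean log2 CPM was also run, and its p-values are unadjusted. In each comparison 3 of those members were picked for the smallest edgeR p on the same tumors, so their exact p-values are small in part by that choice. With 5 and 6 tumors there are 462 arrangements and the smallest exact p is 0.00216; with 5 and 5 there are 252 and it is 0.00794. Myh4, Tnnc2 and Ttn were named with earlier results from these same samples known, so their values here are not independent evidence. The 4T1-CAT alum tumors enter both comparisons of that line, CT26 alum enters the CT26 and the line comparison, and 4T1 alum enters the 4T1 and the line comparison, so those pairs share control tumors.

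Does catalase made inside the tumor cells come with different levels of the muscle genes? In 4T1-CAT alum tumors the fast-fiber genes were higher than in 4T1-control alum tumors for most members, but none passed the test. Myh4 had 10.5, 10.9, 11.04, 4.03 and 21.2 CPM in 4T1-CAT alum tumors 1 to 5 and a lowest of 0, a median of 2.81 and a highest of 3.74 CPM in the 4T1-control alum tumors. As counted all 5 were above all 6 controls, but 4T1-control alum replicate 2, the tumor with the fewest counts, was at 0. There 3 counts would be 6.55 CPM, and 4 of 5 tumors were above that limit. Means of Myh4 were 11.5 ± 6.16 (SD, n = 5) and 2.34 ± 1.43 CPM (SD, n = 6). Its log2 fold change was 2.05 (SE 0.41), adjusted p = 0.363 by edgeR. The exact permutation p was 0.00216 with that 0 as counted, and 0.00794 without that tumor, where all 5 were above the other 5 controls. Tnnc2 had 143, 196, 153, 98.1 and 295 CPM, against a lowest of 34.2, a median of 62.1 and a highest of 146 CPM in the controls. In 3 of 5 tumors Tnnc2 was above all controls. Its log2 fold change was 1.28 (SE 0.31), adjusted p = 0.503, and its exact permutation p was 0.0108. Ckm had 6.35, 3.89, 5.21, 2.01 and 7.07 CPM, against a lowest of 0, a median of 0.8294 and a highest of 3.196 CPM. As counted 4 of 5 tumors were above all controls, but controls 1 and 2 were at 0, and with these set to 3 counts it was 1 of 5. Its log2 fold change was 1.85 (SE 0.52), adjusted p = 0.622, with an exact permutation p of 0.0108 as counted and 0.0317 without those 2 controls.

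The filament genes Acta1 and Ttn had the same sign. Between 4T1-CAT alum and 4T1-control alum the edgeR log2 fold changes were 1.24 (SE 0.36, adjusted p = 0.658) for Ttn, 1.00 (SE 0.32, adjusted p = 0.668) for Acta1 and 0.51 (SE 0.21, adjusted p = 0.864) for Mylpf. Exact permutation p-values were 0.0325 for Acta1, 0.0346 for Ttn and 0.0476 for Mylpf. Des, Mb, Tnnt1 and Tnni1 did not pass the filter. Of the 34 members 22 were tested, 20 with a positive and 2 with a negative log2 fold change, and their median was 0.69 beside -0.0053 over all genes tested. By mean CPM 31 of the 34 were higher and 3 lower, and as counted Myh4 was the 1 member without overlap, which rests on the 0 above. No share of all genes without overlap is given beside that count, so it only describes. edgeR called 0 of 12534 genes (0%) and 0 members, while an unadjusted p under 0.05 was reached by 637 genes (5.08%) and 10 members, each of the 10 higher. DESeq2 called 0 genes. Without a filter on low counts edgeR called 131 of 28475 genes (0.460%) and 6 of 34 members, Acta1, Ckm, Myh4, Myl1, Tnnc2 and Ttn. A p that misses the threshold does not show that values did not differ. The muscle sum was 1.71 times as high, a difference of 0.0402 percentage points, with 3 of 5 tumors above all controls. Without 4T1-CAT alum replicate 5 that difference was 0.0233 percentage points, 6 members and 3.59% of genes had an unadjusted p under 0.05, and the median log2 fold change was 0.47. Ttn then had 0.76, Acta1 0.73, Mylpf 0.33, Tnnc2 1.01 and Myh4 1.73. Without 4T1-CAT alum replicate 3 edgeR called 1 gene, and 0 members.

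No marker of other tissues passed the adjusted threshold between 4T1-CAT alum and 4T1-control alum tumors. Of the adipocyte list, 3 of 4 tested genes had an unadjusted p under 0.05, as 5.08% of all genes did, and were higher: Retn, Cfd and Fabp4, a hormone, a complement protease and a fatty-acid carrier of fat cells. The list summed to 0.00985, 0.0121, 0.00806, 0.00997 and 0.0245% of counts in 4T1-CAT alum tumors 1 to 5. In 4T1-control alum tumors it summed to a lowest of 0.00254, a median of 0.00645 and a highest of 0.0101%. Fibroblast genes were higher at an unadjusted p under 0.05 for 5 of 8, Dcn, Col14a1, Col3a1, Pdgfra and Col1a2, which encode matrix proteins and a growth factor receptor. The fibroblast list summed to 0.385, 0.330, 0.239, 0.298 and 0.674% in 4T1-CAT alum tumors 1 to 5. The controls summed to a lowest of 0.192, a median of 0.270 and a highest of 0.320%. 4T1-CAT alum replicate 5 was the highest of all 38 tumors in both lists. Of the other muscle genes 1 of 23, Car3, was higher at an unadjusted p under 0.05, and their median log2 fold change was 0.19 beside 0.69 for the members, 0.84 for the adipocyte, 0.87 for the erythroid and 0.44 for the fibroblast genes. Elsewhere, at an unadjusted p under 0.05 Myh11 of 6 smooth muscle genes, Hba-a1 of 4 erythroid genes and Pmp22 of 2 Schwann cell genes were higher, and Tnnt2 of 2 cardiac genes and Epcam of 6 epithelial genes were lower. The part of such tissue in the muscle values was not tested.

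Next came the question of what catalase outside the cells adds in tumors that already make it inside. With CAT-ABP the 4T1-CAT tumors had lower levels of several fast-fiber genes, and the call depended on the tool, the filter and the use of a replicate block. Tnnc2, Myl1 and Mylpf are given first because they had the smallest edgeR p here, so their exact p-values are not a second, independent test. Tnnc2 had 79.4, 85.1, 67.1, 59.6 and 86.2 CPM in 4T1-CAT CAT-ABP + alum tumors 1 to 5. In 4T1-CAT alum tumors 1 to 5 Tnnc2 had 143, 196, 153, 98.1 and 295 CPM. All 5 with CAT-ABP were below all 5 without it. Its log2 fold change was -1.24 (SE 0.24), adjusted p = 0.130 by edgeR and its exact permutation p 0.00794, the smallest possible. Myl1 had 29.4, 24.9, 20.1, 20.3 and 26.9 CPM, against 38.8, 61.9, 49.4, 31.8 and 112 CPM with alum alone. Mylpf had 31.3, 32.5, 26.5, 27.5 and 30.8 CPM, against 49.0, 41.6, 52.1, 34.4 and 73.8 CPM. Neither light chain overlapped between the groups. The log2 fold change of Myl1 was -1.26 (SE 0.29), adjusted p = 0.187, with an exact permutation p of 0.00794. That of Mylpf was -0.74 (SE 0.18), adjusted p = 0.187, with an exact permutation p of 0.00794.

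Of the 34 members 4, Tnnc2, Myl1, Mylpf and Tnni2, had every CAT-ABP tumor below every alum tumor, and by mean CPM 27 were lower and 7 higher. Here too the share of all genes without overlap is not given, so the 4 only describe. With CAT-ABP in 4T1-CAT tumors the other named members had edgeR log2 fold changes of -0.55 (SE 0.44, adjusted p = 0.557) for Myh4, -0.12 (SE 0.33, adjusted p = 0.896) for Ttn, -0.80 (SE 0.26, adjusted p = 0.208) for Acta1 and -0.67 (SE 0.37, adjusted p = 0.394) for Ckm. Des, Mb, Tnnt1 and Tnni1 did not pass the filter. On mean log2 CPM the sign was the other for Ttn, 0.031 (exact permutation p = 0.968). Among the 23 tested members 21 were negative and 2 positive, with a median of -0.63 beside -0.00066 over all genes. edgeR called 0 of 13093 genes (0%) and 0 members, and 2000 genes (15.3%) and 9 members, all 9 lower, had an unadjusted p under 0.05. From technical replicate 1 alone 12.1% of genes and 8 of 18 members reached that level. From technical replicate 2 alone it was 2.41% of genes and 6 of 12 members. DESeq2 called 282 of 29680 genes (0.950%) and 5 of 34 members: Tnnc2, Myl1, Mylpf, Tnni2 and Acta1. Those 29680 are all genes with a p, including any that DESeq2's own filter left without an adjusted p. The share is thus not on the same base as that of edgeR. DESeq2's adjusted p was 0.000442 for Tnnc2, and over all alternatives to the edgeR result, DESeq2 among them, the adjusted p of Tnnc2 ranged from 0.000442 to 0.999. For Myl1 it was 0.00444 by DESeq2 (range over all alternatives 0.00444 to 0.999), for Mylpf 0.0119 (range 0.0119 to 0.999) and for Acta1 0.0438 (range 0.0438 to 0.999). With the replicate number as a block edgeR called 3 of 13093 genes (0.0229%) and 1 of 23 members, Tnnc2, at an adjusted p of 0.0327. Without a filter edgeR called 47 of 29708 genes (0.158%) and 4 of 34 members, Atp2a1, Myl1, Mylpf and Tnnc2. The muscle sum differed by -0.0308 percentage points, with 2 of 5 tumors below all controls, and by -0.0140 without 4T1-CAT alum replicate 5. Without that tumor 9 members and 17.9% of genes had an unadjusted p under 0.05, 6 of 24 tested members were positive with a median of -0.37, Myh4 had -0.24 and Acta1 -0.53, and Ttn turned to 0.36. Without CAT-ABP replicate 3 or 5 edgeR called 1 gene, and 0 members.

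No gene of the other lists passed the adjusted threshold in edgeR here, and their part was not tested. At an unadjusted p under 0.05, which 15.3% of all genes reached, 5 of 24 other muscle genes were lower: Phkg1, Csrp3, Myom2, Cryab and Smpx, genes of glycogen breakdown, Z disc, M band, chaperone and small sarcomere proteins. Lower as well were Dcn and Lum of 8 fibroblast genes, Fabp4 of 4 adipocyte genes, Acta2 and Myh11 of 6 smooth muscle genes, Cd68 of 4 leukocyte genes and Mef2c of 4 myogenic genes. By sign 5 of 6 epithelial, 2 of 2 cardiac and 2 of 2 epidermal genes went the other way, none at an unadjusted p under 0.05. In 4T1-CAT CAT-ABP + alum tumors 1 to 5 the adipocyte list summed to 0.00710, 0.00806, 0.00810, 0.00519 and 0.0188% and the fibroblast list to 0.296, 0.271, 0.299, 0.371 and 0.361% of counts. 4T1-CAT alum replicate 5 had 0.674% for the fibroblast list, above each of these.

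Catalase held outside the cells was compared with alum alone in CT26 tumors, and here the direction of the muscle sum and of the members' median turned when 1 control tumor was left out. Myh4 had 83.6, 7.30, 32.01, 7.03 and 3.37 CPM in CT26 alum tumors 1 to 5 and a lowest of 2.64, a median of 6.11 and a highest of 11.02 CPM in the CT26 CAT-ABP + alum tumors. Only replicates 1 and 3 of the controls were above the treated range. Means were 6.44 ± 2.75 CPM (SD, n = 6) with CAT-ABP and 26.7 ± 33.8 (SD, n = 5) without. The log2 fold change of Myh4 was -2.12 (SE 0.64), adjusted p = 1.000 by edgeR, with an exact permutation p of 0.201 and a range of -2.41 to -1.05 over tumors left out in turn. Leaving out CT26 alum replicate 1 gave the smallest of these changes. Trdn had 9.49, 3.41, 2.32, 2.64 and 1.69 CPM with alum and a lowest of 0.609, a median of 2.57 and a highest of 3.17 CPM with CAT-ABP. Cox6a2 had 14.2, 9.73, 7.49, 10.2 and 9.40 CPM with alum and a lowest of 5.28, a median of 7.04 and a highest of 10.7 CPM with CAT-ABP. Both overlapped between the groups. Trdn had a log2 fold change of -0.91 (SE 0.51), adjusted p = 1.000, with an exact permutation p of 0.240, and -0.20 without CT26 alum replicate 1. For Cox6a2 it was -0.40 (SE 0.24), adjusted p = 1.000, with an exact permutation p of 0.115, and -0.23 without that tumor.

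In CT26 the other named members had edgeR log2 fold changes with CAT-ABP of -0.16 (SE 0.48, adjusted p = 1.000) for Tnnc2, -0.44 (SE 0.47, adjusted p = 1.000) for Ttn, -0.18 (SE 0.46, adjusted p = 1.000) for Acta1, -0.89 (SE 0.58, adjusted p = 1.000) for Ckm and 0.030 (SE 0.36, adjusted p = 1.000) for Mylpf. Des, Mb, Tnnt1 and Tnni1 did not pass the filter. Differences of mean log2 CPM had the other sign for Tnnc2, 0.28 (exact permutation p = 0.654), and Acta1, 0.20 (exact permutation p = 0.794). Of 21 tested members 4 were positive and 17 negative, with a median of -0.34 beside -0.0038 over all genes. By mean CPM 8 of the 34 were higher and 26 lower. edgeR called 0 of 12830 genes (0%) and 0 members, DESeq2 called 1 gene and 0 members, and 311 genes (2.42%) and 1 member, Myh4, had an unadjusted p under 0.05. The muscle sum differed by -0.0118 percentage points. Without CT26 alum replicate 1 that difference turned to 0.0116, and 17 of 23 tested members were positive with a median of 0.33. Acta1 then had 0.39, Tnnc2 0.49, Ttn 0.33 and Ckm -0.054. Other tumors left out kept the median negative: -0.18 without CT26 CAT-ABP + alum replicate 3, -0.52 without replicate 6, and -0.56, -0.54 and -0.59 without CT26 alum replicates 2, 4 and 5, with 2, 2 and 4 members at an unadjusted p under 0.05 in the last 3, beside 2.06%, 2.47% and 6.06% of genes. Mylpf turned negative without CT26 CAT-ABP + alum replicate 1 or 6 or CT26 alum replicate 2, 4 or 5, with -0.051, -0.072, -0.19, -0.086 and -0.080. In the other lists an unadjusted p under 0.05 was reached by Hspb6 of 23 other muscle genes and Nppb of 2 cardiac genes, both lower, and by Lum of 8 fibroblast genes, higher.

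In 4T1 tumors the same treatment came with muscle levels that overlapped those of the controls. Ryr1 had 1.37, 2.59, 0.910, 3.59 and 1.05 CPM in 4T1 alum tumors 1 to 5 and a lowest of 2.39, a median of 3.98 and a highest of 6.91 CPM in the 4T1 CAT-ABP + alum tumors. In 4 of 6 treated tumors Ryr1 was above all controls. Its log2 fold change was 1.17 (SE 0.39), adjusted p = 0.999 by edgeR, with an exact permutation p of 0.0238. Ttn had 14.3, 23.6, 6.91, 35.7 and 31.1 CPM with alum and a lowest of 22.8, a median of 33.3 and a highest of 63.8 CPM with CAT-ABP. Neb had 13.7, 22.4, 6.73, 27.5 and 26.1 CPM with alum and a lowest of 13.3, a median of 29.6 and a highest of 43.0 CPM with CAT-ABP. For each of these long sarcomere proteins 3 of 6 treated tumors were above all controls. The log2 fold change of Ttn was 0.65 (SE 0.34), adjusted p = 0.999, with an exact permutation p of 0.126, and 0.37 without 4T1 CAT-ABP + alum replicate 2. That of Neb was 0.56 (SE 0.33), adjusted p = 0.999, with an exact permutation p of 0.190, and 0.33 without 4T1 alum replicate 3.

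With CAT-ABP in 4T1 the edgeR log2 fold changes of the remaining named members were 0.29 (SE 0.41, adjusted p = 0.999) for Myh4, 0.20 (SE 0.32, adjusted p = 0.999) for Tnnc2, 0.21 (SE 0.31, adjusted p = 0.999) for Acta1, -0.32 (SE 0.48, adjusted p = 0.999) for Ckm, -0.14 (SE 0.20, adjusted p = 0.999) for Mylpf and 0.17 (SE 0.52, adjusted p = 0.999) for Des. Mb, Tnnt1 and Tnni1 did not pass the filter. The difference of mean log2 CPM had the other sign for Ckm, 0.095 (exact permutation p = 0.874). Of 24 tested members 17 were positive and 7 negative, with a median of 0.20 beside -0.0030 over all genes, and by mean CPM 25 of the 34 were higher and 9 lower. edgeR called 0 of 13092 genes (0%) and 0 members, DESeq2 called 0, and 377 genes (2.88%) and 1 member, Ryr1, had an unadjusted p under 0.05. The muscle sum differed by 0.0108 percentage points, less than the SD of either group. Without 4T1 alum replicate 5 that difference was 0.0202 and without 4T1 alum replicate 3 it was 0.00556. Without 4T1 alum replicate 5 Ckm turned to 0.17 and Mylpf to 0.072. Des turned to -0.13 without 4T1 CAT-ABP + alum replicate 5, and to -0.061 and -0.035 without 4T1 alum replicates 2 and 3. The median was small beside its shifts: it was 0.12 and 0.073 without treated replicates 2 and 5, and 0.055, 0.066, 0.0099 and 0.42 without controls 1, 2, 3 and 5, each left out alone. Members at an unadjusted p under 0.05 were 3 without treated replicate 1 or 3 or control 4, beside 2.79%, 2.43% and 3.62% of genes, and 5 without control 5, beside 3.26%. Within sequencing pools 1 and 3 the muscle sum averaged 0.0763% in the 6 CAT-ABP tumors and 0.0508% in 2 alum tumors. With the pool as a block, 21 of 24 members were positive with a median of 0.73, 4 members and 4.16% of genes had an unadjusted p under 0.05, and 0 were called. No treated tumor was in the other pools, so the blocked difference rests on those 2 alum tumors as controls. Elsewhere Car3 of 21 other muscle genes, Cfd of 4 adipocyte genes, Dcn of 8 fibroblast genes and Chrna1 of 4 myogenic genes were higher at an unadjusted p under 0.05, and Adgre1 of 4 leukocyte genes was lower.

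Whether the muscle difference with extracellular catalase is the same in both models was asked with the interaction of line and treatment. Myh4 had the smallest p, with a CT26-minus-4T1 difference in log2 fold change of -2.42 (SE 0.84), adjusted p = 1.000 by edgeR. Casq1 had -2.54 (SE 1.05), adjusted p = 1.000, and Ryr1 -1.25 (SE 0.52), adjusted p = 1.000. Casq1 ranged 0.406 to 3.49 CPM in CT26 CAT-ABP + alum, 0.241 to 10.5 in CT26 alum, 0.790 to 2.51 in 4T1 CAT-ABP + alum and 0 to 2.09 in 4T1 alum. For the other named members the interaction terms were -0.39 (SE 0.63, adjusted p = 1.000) for Tnnc2, -1.11 (SE 0.63, adjusted p = 1.000) for Ttn, -0.42 (SE 0.61, adjusted p = 1.000) for Acta1, -0.59 (SE 0.82, adjusted p = 1.000) for Ckm, 0.15 (SE 0.44, adjusted p = 1.000) for Mylpf and -1.02 (SE 0.92, adjusted p = 1.000) for Des. Of 27 tested members 5 were positive and 22 negative, with a median of -0.48 beside -0.024 over all genes. edgeR called 0 of 14160 genes (0%) and 0 members, DESeq2 called 0, and 509 genes (3.59%) and 3 members, each negative, had an unadjusted p under 0.05. Without CT26 alum replicate 1 the median was 0.11 and 0 members and 3.08% of genes had an unadjusted p under 0.05. Without CT26 CAT-ABP + alum replicate 6 it was -0.73, without 4T1 alum replicate 4 -0.80, without 4T1 alum replicate 5 -0.90 with 5 such members beside 3.66% of genes, and without CT26 alum replicate 5 there were 6 beside 5.48%. Of the 27 tested members 14 were positive without CT26 alum replicate 1. Among the named members Acta1, Ckm and Tnnc2 turned without it to 0.15, 0.22 and 0.27. Mylpf turned to -0.064 without CT26 alum replicate 2 and -0.055 without 4T1 alum replicate 5. Of the other lists, Cryab of 26 other muscle genes, Nppb of 2 cardiac, Cfd of 4 adipocyte, Hba-a1 of 4 erythroid and Ptprc of 4 leukocyte genes were negative, and Sbsn of 3 epidermal genes positive, at an unadjusted p under 0.05.

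The tumor models were compared under alum alone, CT26 against 4T1, and here 2 of 19 tested members (10.5%) passed the test, beside 5434 of 12817 genes (42.4%). The 2 were Cox6a2 and Myh4, both higher in CT26. Cox6a2 had 14.2, 9.73, 7.49, 10.2 and 9.40 CPM in CT26 alum tumors 1 to 5 and 2.05, 4.31, 3.27, 4.90 and 7.84 CPM in 4T1 alum tumors 1 to 5. In 4 of 5 CT26 tumors it was above all 4T1 tumors. Means were 10.2 ± 2.47 CPM (SD, n = 5) and 4.47 ± 2.17 CPM (SD, n = 5), and the log2 fold change was 1.17 (SE 0.30), adjusted p = 0.00589 by edgeR with an exact permutation p of 0.0159. From technical replicate 2 alone it was 1.05 (adjusted p = 0.117), and over all alternatives the adjusted p ranged from 0.00143 to 0.117. Myh4 had 83.6, 7.30, 32.01, 7.03 and 3.37 CPM in CT26 alum tumors and 2.39, 5.46, 2.00, 6.097 and 15.4 CPM in 4T1 alum tumors. CT26 replicates 1 and 3 were above all 4T1 tumors, and the remaining tumors overlapped. The log2 fold change was 2.15 (SE 0.74), adjusted p = 0.0289, with an exact permutation p of 0.183.

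The call of Myh4 was lost when any of several tumors was left out. Without CT26 alum replicate 1 it was 1.09 (adjusted p = 0.179), and without replicate 3 2.09 (adjusted p = 0.0536). Without 4T1 alum replicate 1 it was 1.99 (adjusted p = 0.0683), without replicate 2 2.12 (adjusted p = 0.0598), without replicate 3 1.89 (adjusted p = 0.0711) and without replicate 4 2.14 (adjusted p = 0.0600). DESeq2 gave 2.08 (adjusted p = 0.0686), with the sequencing pool as a block it was 2.78 (adjusted p = 0.0984), and with the replicate number as a block 1.49 (adjusted p = 0.155). Over all alternatives the adjusted p of Myh4 ranged from 0.00703 to 0.179. Myl1, next by p, had 124, 5.84, 65.9, 21.4 and 29.4 CPM in CT26 alum and 14.0, 6.03, 7.10, 28.8 and 67.4 CPM in 4T1 alum. CT26 replicate 1 was above and CT26 replicate 2 below every 4T1 tumor. Its log2 fold change was 1.03 (SE 0.66), adjusted p = 0.223, and it was 0.38 without CT26 alum replicate 1 and 1.78 (adjusted p = 0.0389) without 4T1 alum replicate 5, within a range of adjusted p of 0.0389 to 0.664.

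The fast troponin pair stood out once CT26 alum replicate 1 was left out, a selection made after these values were seen. Tnnt3 had 54.0, 4.86, 23.8, 6.73 and 10.6 CPM in CT26 alum tumors and 29.0, 23.8, 29.8, 33.4 and 52.5 CPM in 4T1 alum tumors. Tnni2 had 64.2, 10.2, 36.6, 13.8 and 16.6 CPM in CT26 alum tumors and 34.1, 43.7, 38.02, 39.3 and 50.4 CPM in 4T1 alum tumors. CT26 alum replicates 2, 4 and 5 were below every 4T1 alum tumor in both Tnnt3 and Tnni2. In Tnnt3 CT26 alum replicate 3 was nearly level with 4T1 alum replicate 2, at 23.83 against 23.85 CPM. With all 10 tumors Tnnt3 had a log2 fold change of -0.68 (SE 0.46), adjusted p = 0.253, and Tnni2 -0.49 (SE 0.37), adjusted p = 0.304. Without CT26 alum replicate 1 Tnnt3 had -1.43 (SE 0.36, adjusted p = 0.00621) and Tnni2 -1.01 (SE 0.29, adjusted p = 0.0121). So 3 of 18 tested members passed without that tumor, Cox6a2 higher and the troponins lower in CT26, beside 5073 of 12845 genes (39.5%).

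Between the lines the remaining named members had edgeR log2 fold changes of 0.76 (SE 0.56, adjusted p = 0.294) for Tnnc2, 0.70 (SE 0.52, adjusted p = 0.291) for Ttn, 0.58 (SE 0.52, adjusted p = 0.390) for Acta1, 0.73 (SE 0.68, adjusted p = 0.417) for Ckm and 0.16 (SE 0.37, adjusted p = 0.756) for Mylpf. Des, Mb, Tnnt1 and Tnni1 did not pass the filter. On mean log2 CPM Mylpf had the other sign, -0.11 (exact permutation p = 0.833). Of 19 tested members 17 were positive and 2 negative, with a median of 0.50 beside 0.020 over all genes, and by mean CPM 30 of the 34 were higher and 4 lower in CT26. Without CT26 alum replicate 1 these became 6 positive of 18 with a median of -0.16, Mylpf turned to -0.21 and Ttn to -0.056, and Tnnc2 had 0.11 and Acta1 0.021. Without 4T1 alum replicate 3 the median was 0.32, and 4 members had an unadjusted p under 0.05 without CT26 alum replicate 2 or 4T1 alum replicate 5, beside 50.7% and 48.9% of genes. Between the lines edgeR called 5434 of 12817 genes (42.4%), 2727 of them higher in CT26, beside 2 of 19 tested members. An unadjusted p under 0.05 was reached by 6438 genes (50.2%) and 2 members. DESeq2 called 6304 of 29516 genes (21.4%) and 2 of 34 members, Casq1 and Cox6a2, where the 29516 again include any genes without an adjusted p. In edgeR a common model of the 7 groups called 3 of 27 members, Casq1, Cox6a2 and Myh4, beside 43.4% of genes. The sequencing pool as a block called 2 of 19, Cox6a2 and Trdn, beside 31.6%, and no filter on low counts 4 of 34, Casq1, Cox6a2, Myh4 and Myl1, beside 21.3%. The muscle sum differed by 0.0140 percentage points, and by -0.00933 without CT26 alum replicate 1. All CT26 tumors were in pools 1 and 3, where the 2 tumors of 4T1 alum averaged 0.0508%.

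Beyond the members, 9 of 22 tested genes of the other muscle list differed between the lines, where 42.4% of all genes tested did. Higher in CT26 were 5: the tropomyosins Tpm1 and Tpm3, the small heat shock proteins Cryab and Hspb6, and Pfkm, the muscle phosphofructokinase. Lower were 4: Fbxo32, a ubiquitin ligase, Phkg1, a phosphorylase kinase subunit, Dmd, the membrane link dystrophin, and Smtnl2. Of the epithelial genes 6 of 6 were lower in CT26, of the smooth muscle genes 1 of 5 was higher and 4 lower, and of the fibroblast genes 1 of 8 was higher and 5 lower. Of leukocyte genes 3 of 4 were higher, of erythroid genes 2 of 4 and of adipocyte genes 1 of 3. Among 2 cardiac genes 1 was higher and 1 lower, and 1 of 2 epidermal, 1 of 6 endothelial and 1 of 2 Schwann cell genes were lower.

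Do the members vary together from tumor to tumor? Over the 38 tumors the 561 pairs had a median Pearson r of 0.391 on log2 CPM, 502 were positive, 193 were above 0.5 and 8 above 0.8. Within the 11 CT26 tumors the median was 0.632, with 507 positive and 345 above 0.5. Within the 27 tumors of 4T1 lines it was 0.321, with 481 positive and 129 above 0.5. Split by sequencing pool, the 4T1 lines had medians of 0.296 in 8 tumors of pools 1 and 3 and 0.338 in 19 tumors of pools 2 and 4. These medians describe, since pairs share genes and tumors. The closest pairs were Acta1 with Tnnc2 (r = 0.948), Myl1 with Tnnc2 (r = 0.929), Acta1 with Myl1 (r = 0.864) and Ttn with Neb (r = 0.858), chosen after their values were seen. By its median r with the others a member ran from 0.596 for Tnnc2 and 0.586 for Acta1 down to -0.00541 for Eno3 and -0.0465 for Tnnc1. The slow troponins Tnni1 (0.0806) and Tnnt1 (0.174), Cacna1s (0.117) and Mb (0.129) were also low, and their counts were few.

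**Figure D2:**
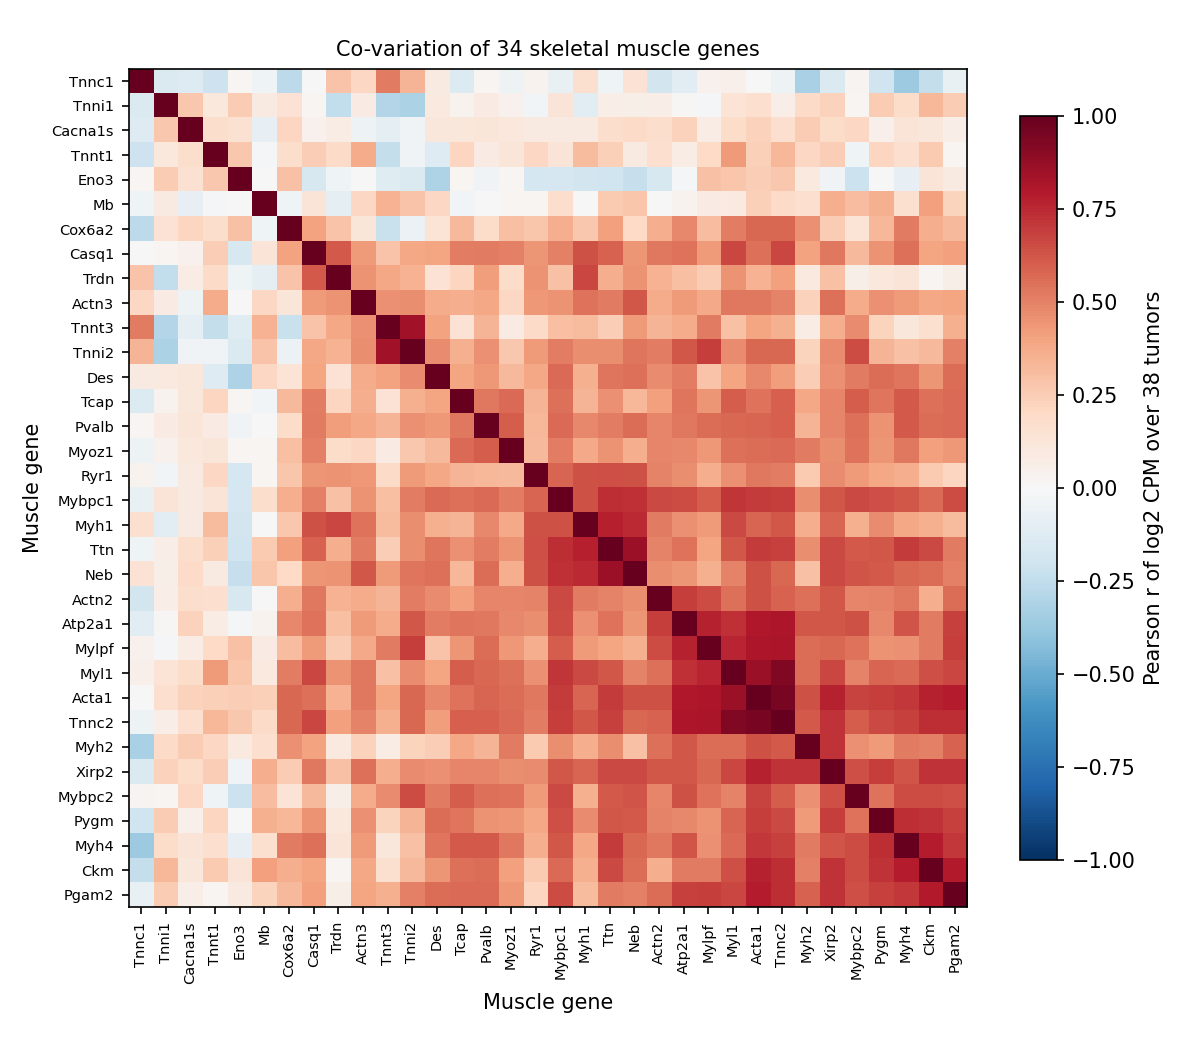
Pearson r of log2 CPM over 38 tumors for each pair of the 34 skeletal muscle genes, ordered by clustering, on a color scale. Acta1, Tnnc2 and Myl1 stand in a block of high r, while Eno3 and Tnnc1 have median r of -0.00541 and -0.0465 with the other members.

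For 8 pairs chosen by role, r and rho were tested with 100000 permutations over all tumors, CT26 tumors and 4T1-line tumors, a family of 24, with Benjamini-Hochberg adjustment over it. The smallest p these permutations can give is 1e-05. Tumors were permuted without regard to group or pool, and over all tumors without regard to line. A shift in level between such sets therefore also enters r and its p. Actin and creatine kinase, Acta1 and Ckm, had r = 0.771 and rho = 0.837 (permutation p = 1e-05 and 1e-05, adjusted p = 8e-05 and 8e-05) over 38 tumors, and r = 0.754 without the 2 tumors farthest from the median. In CT26 tumors they had r = 0.894 and rho = 0.873 (permutation p = 0.000200 and 0.000970, adjusted p = 0.000960 and 0.00388), and r = 0.873 without 2 tumors. Across the 4T1 lines they had r = 0.725 and rho = 0.780 (permutation p = 1e-05 and 1e-05, adjusted p = 8e-05 and 8e-05), and r = 0.715 without 2 tumors. By pool r was 0.651 in the 8 tumors of pools 1 and 3 and 0.762 in the 19 of pools 2 and 4. So this pair went together in both models, and the values by pool were not tested.

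Fast troponin T and I, Tnnt3 and Tnni2, had r = 0.840 and rho = 0.704 (permutation p = 1e-05 and 1e-05, adjusted p = 8e-05 and 8e-05) over all tumors, and r = 0.736 without 2. Within CT26 tumors they had r = 0.941 and rho = 0.927 (permutation p = 2e-05 and 7e-05, adjusted p = 0.000120 and 0.000420), and r = 0.864 without 2. Within the 4T1 lines they had r = 0.320 and rho = 0.393 (permutation p = 0.104 and 0.0447, adjusted p = 0.146 and 0.0715), and r = 0.161 without 2, and r was -0.218 in the 8 tumors of pools 1 and 3 and 0.458 in the 19 of pools 2 and 4. Within the 4T1 lines neither coefficient passed the adjusted threshold. The fast heavy and light chains, Myh4 and Mylpf, had r = 0.458 and rho = 0.378 (permutation p = 0.00554 and 0.0191, adjusted p = 0.0148 and 0.0416) over all tumors, and r = 0.344 without 2. For CT26 tumors they had r = 0.474 and rho = 0.355 (permutation p = 0.140 and 0.286, adjusted p = 0.177 and 0.327), and r = -0.0689 without CT26 alum replicates 1 and 3, so the CT26 value rests on those tumors. For the 4T1 lines they had r = 0.499 and rho = 0.418 (permutation p = 0.00891 and 0.0309, adjusted p = 0.0214 and 0.0530), and r = 0.340 without 2, and r was -0.144 in the 8 tumors of pools 1 and 3 and 0.630 in the 19 of pools 2 and 4.

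The calcium pump and the calcium store, Atp2a1 and Casq1, had r = 0.539 and rho = 0.534 (permutation p = 0.000520 and 0.000610, adjusted p = 0.00208 and 0.00293) over all tumors, and r = 0.542 without 2. Among CT26 tumors they had r = 0.790 and rho = 0.736 (permutation p = 0.00371 and 0.0133, adjusted p = 0.0111 and 0.0416), and r = 0.948 without 2. Among the 4T1 lines they had r = 0.375 and rho = 0.384 (permutation p = 0.0554 and 0.0497, adjusted p = 0.0830 and 0.0745), and r = 0.284 without 2, and r was 0.277 in the 8 tumors of pools 1 and 3 and 0.369 in the 19 of pools 2 and 4. Desmin and actin, Des and Acta1, had r = 0.480 and rho = 0.383 (permutation p = 0.00238 and 0.0179, adjusted p = 0.00816 and 0.0416) over all tumors, and r = 0.433 without 2. They had r = 0.647 and rho = 0.718 (permutation p = 0.0322 and 0.0175, adjusted p = 0.0516 and 0.0416) in CT26, and r = 0.461 without 2. The 4T1 lines gave r = 0.433 and rho = 0.301 (permutation p = 0.0240 and 0.127, adjusted p = 0.0443 and 0.169), and r = 0.168 without 4T1-control alum replicates 2 and 5, on which the value rests, and r was 0.0486 in the 8 tumors of pools 1 and 3 and 0.581 in the 19 of pools 2 and 4. Myoglobin and creatine kinase, Mb and Ckm, had r = 0.414 and rho = 0.379 (permutation p = 0.01000 and 0.0189, adjusted p = 0.0218 and 0.0416) over all tumors, and r = 0.374 without 2. They had r = 0.715 and rho = 0.689 (permutation p = 0.0130 and 0.0244, adjusted p = 0.0260 and 0.0487) in CT26, and r = 0.440 without 2. The 4T1 lines gave r = 0.424 and rho = 0.370 (permutation p = 0.0274 and 0.0583, adjusted p = 0.0469 and 0.0823), and r = 0.331 without 2, and r was 0.661 in the 8 tumors of pools 1 and 3 and 0.364 in the 19 of pools 2 and 4.

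The slow-fiber genes did not show such pairs at these counts. Slow troponin T and I, Tnnt1 and Tnni1, had r = 0.106 and rho = -0.0931 (permutation p = 0.524 and 0.578, adjusted p = 0.572 and 0.631) over all tumors, and r = -0.0334 without 2. In the CT26 tumors this pair had r = 0.497 and rho = 0.445 (permutation p = 0.121 and 0.173, adjusted p = 0.161 and 0.218), and r = 0.553 without 2. In the 4T1 lines it had r = -0.237 and rho = -0.422 (permutation p = 0.235 and 0.0293, adjusted p = 0.282 and 0.0530), and r = -0.462 without 2, and r was -0.175 in the 8 tumors of pools 1 and 3 and -0.231 in the 19 of pools 2 and 4. Slow and fast troponin C, Tnnc1 and Tnnc2, had r = -0.0472 and rho = 0.00120 (permutation p = 0.780 and 0.995, adjusted p = 0.780 and 0.995) over all tumors, and r = 0.0572 without 2. The CT26 tumors gave r = 0.304 and rho = 0.373 (permutation p = 0.361 and 0.261, adjusted p = 0.412 and 0.314), and r = 0.526 without 2. For the 4T1 lines it was r = -0.0589 and rho = 0.00855 (permutation p = 0.771 and 0.968, adjusted p = 0.780 and 0.995), and r = -0.105 without 2, and r was -0.0500 in the 8 tumors of pools 1 and 3 and -0.123 in the 19 of pools 2 and 4.

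**Figure D3:**
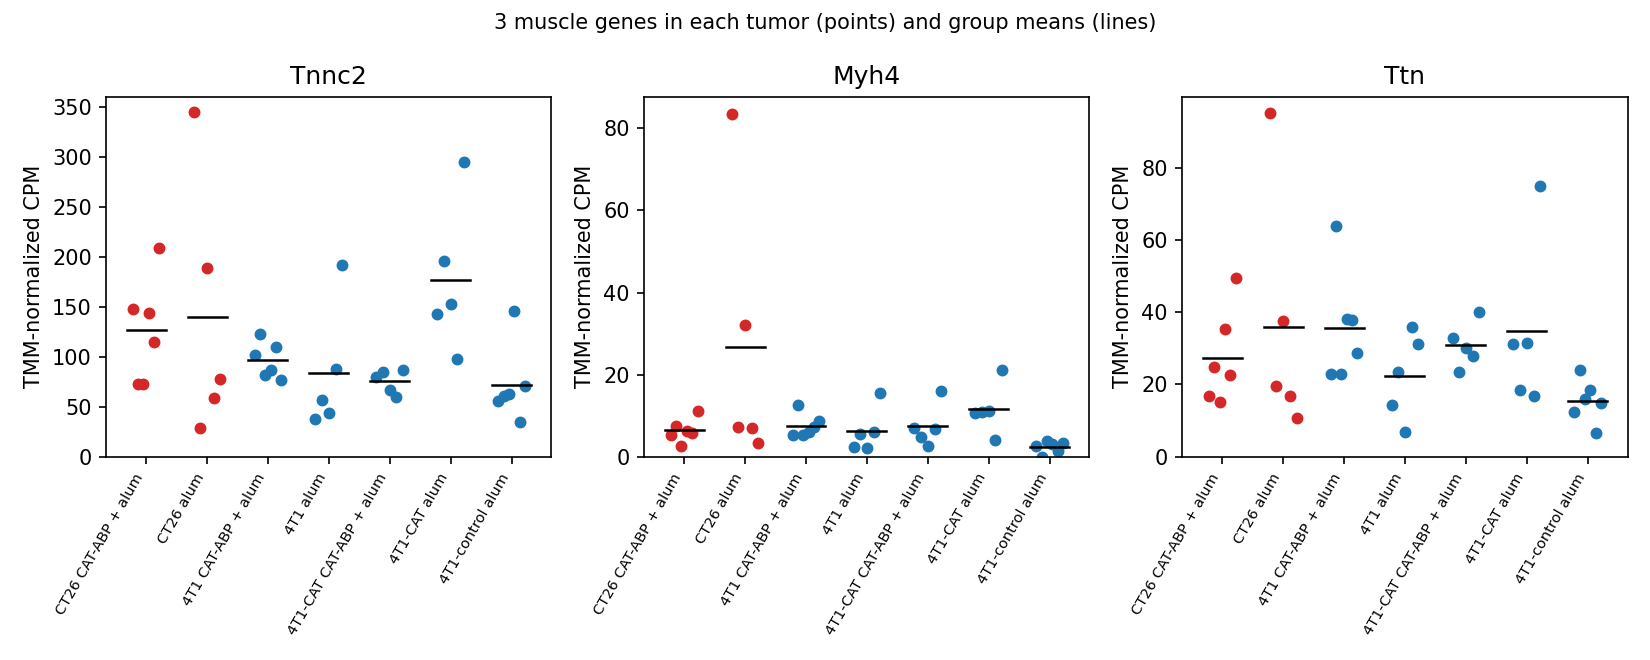
Levels of Tnnc2, Myh4 and Ttn in CPM for each tumor (points) by group, with group means (lines). CT26 alum replicate 1 is highest in each of the 3 genes.

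Among 12979 genes outside the list, those that most resembled the members' mean log2 CPM over the 38 tumors were 10 genes, 5 of them in the list of other muscle genes: Fhl1, Car3, Csrp3, Smpx and Srl. Fhl1, a LIM protein of muscle, had r = 0.862 (0.914 within CT26 and 0.857 within the 4T1 lines). Sln, sarcolipin, a small inhibitor of the calcium pump, had 0.731 (0.821 within CT26 and 0.687 within the 4T1 lines). Car3, the carbonic anhydrase of muscle and fat, had 0.723 (0.913 within CT26 and 0.632 within the 4T1 lines). Cox8b, a cytochrome oxidase subunit of muscle, had 0.713 (0.720 within CT26 and 0.749 within the 4T1 lines). Csrp3, a Z disc LIM protein, had 0.688 (0.713 within CT26 and 0.692 within the 4T1 lines), and Smpx, a small muscle protein, 0.635 (0.690 within CT26 and 0.709 within the 4T1 lines). Srl, sarcalumenin of the reticulum, had 0.565 (0.763 within CT26 and 0.469 within the 4T1 lines), and Pdlim3, an actinin-binding protein, 0.552 (0.810 within CT26 and 0.331 within the 4T1 lines). Cyp1b1, a cytochrome P450 enzyme, had 0.632 (0.692 within CT26 and 0.696 within the 4T1 lines). Myhas, with 0.699 (0.647 within CT26 and 0.763 within the 4T1 lines), is an antisense transcript in the myosin heavy-chain cluster, and because the strand of counting was not stated, its counts and those of the chains opposite it cannot be told apart.

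Lists of other tissues gave a scale for that likeness. The 22 measured genes of the other muscle list had a median r of 0.309 with the members' mean, beside 0.0291 over all genes. Adipocyte genes had 0.443 (4 genes), fibroblast 0.213 (8), Schwann cell 0.212 (2), leukocyte 0.183 (4), endothelial 0.149 (6), erythroid 0.145 (4), and myogenic genes 0.132 (4). Epidermal genes had 0.0659 (3), smooth muscle 0.0247 (6), cardiac 0.0163 (2) and epithelial genes -0.0705 (6). These values describe, and no test was made between lists.

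As summed levels, the 61 other muscle genes took 0.0625% to 0.108% of counts per tumor, led by Tpm1, a tropomyosin that non-muscle cells also make, with 24.3% of the list's counts. The 18 myogenic and immature muscle genes took 0.00204% to 0.00787%, led by Mef2c, a transcription factor also made in immune cells. Adipocyte genes took 0.00254% to 0.0245% (most abundant Fabp4), fibroblast genes 0.0996% to 0.674% (Col3a1) and endothelial genes 0.00625% to 0.0257% (Pecam1). Smooth muscle genes took 0.00259% to 0.0294% (Acta2), Schwann cell genes 0.00164% to 0.00586% (Pmp22) and erythroid genes 0.00498% to 0.0236% (Hbb-bs). Epithelial genes took 0.00385% to 0.336% (Krt18) and leukocyte genes 0.0267% to 0.0755% (Cd68), with the B cell marker Cd79a at 0 in all tumors. Cardiac genes took 0.00216% to 0.0134% (Tnnt2), with the atrial hormone gene Nppa at 0. Epidermal genes took 0.00152% to 0.0355% (Krt14), with the highest in 4T1-CAT CAT-ABP + alum replicate 5. 4T1-CAT alum replicate 5 was the highest tumor in the other muscle, myogenic, adipocyte, fibroblast, endothelial, smooth muscle and Schwann cell lists. The part of these tissues in its muscle sum was not tested.

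By position, 9 members lie on chromosome 7, 6 on chromosome 11, 5 on chromosome 1 and 4 on chromosome 2. RefSeq start sites gave 26 of the 34 a promoter window of 250 bases before to 50 after the start, on GRCm38.p6, which need not match the gene bounds given above. No window was found for Neb, Tnnt3, Tnni2, Trdn, Tcap, Myoz1, Actn3 and Cox6a2. The E-box CANNTG, the letters bound by myogenic factors, occurred on either strand in 22 of 26 windows (84.6%) and in 72.1% of all 27025 promoters. The E-box form CAGCTG, which is contained in CANNTG, occurred in 14 (53.8%) and in 16.1% of all promoters. The letters TATAAA on the sense strand occurred in 5 (19.2%), Tnnt1, Acta1, Myh2, Myh1 and Myh4, and in 8.88% of all. The MEF2 motif occurred on either strand in 6 (23.1%), Xirp2, Ttn, Pgam2, Myh1, Myh4 and Pvalb, and in 3.26% of all. The CArG box, bound by serum response factor, occurred in 2 (7.69%), Acta1 and Myh4, and in 1.57% of all. A match describes letters and not a bound site.

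Promoter windows are shown for 4 members that were high in 4T1-CAT alum tumors against a control or treated group and varied together, Tnnc2, Myl1, Ckm and Myh4, chosen after their values were seen. They are RefSeq sequences on GRCm38.p6, 5′ to 3′ on the strand of the gene, with the matches of the motifs above in capitals. Tnnc2 is at chr2:164779685-164779984 on the minus strand, with 2 CANNTG matches. Myl1 is at chr1:66945007-66945306 on the minus strand, with 1 CAGCTG match. Ckm is at chr7:19410844-19411143 on the plus strand, with 1 CAGCTG match. Myh4 is at chr11:67237562-67237861 on the plus strand, with 3 CANNTG matches of which 1 is CAGCTG, 2 TATAAA matches, 1 MEF2 match and 1 CArG box.
Tnnc2: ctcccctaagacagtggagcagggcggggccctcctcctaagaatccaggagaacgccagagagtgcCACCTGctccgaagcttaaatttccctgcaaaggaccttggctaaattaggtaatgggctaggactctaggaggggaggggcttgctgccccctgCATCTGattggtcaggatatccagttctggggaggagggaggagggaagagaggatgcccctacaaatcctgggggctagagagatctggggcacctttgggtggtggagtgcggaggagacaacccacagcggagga
Myl1: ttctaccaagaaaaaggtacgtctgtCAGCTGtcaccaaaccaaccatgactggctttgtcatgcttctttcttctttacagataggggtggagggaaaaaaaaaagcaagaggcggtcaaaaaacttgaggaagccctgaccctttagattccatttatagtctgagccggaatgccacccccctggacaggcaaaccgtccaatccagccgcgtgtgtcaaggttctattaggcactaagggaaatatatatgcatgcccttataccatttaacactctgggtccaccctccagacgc
Ckm: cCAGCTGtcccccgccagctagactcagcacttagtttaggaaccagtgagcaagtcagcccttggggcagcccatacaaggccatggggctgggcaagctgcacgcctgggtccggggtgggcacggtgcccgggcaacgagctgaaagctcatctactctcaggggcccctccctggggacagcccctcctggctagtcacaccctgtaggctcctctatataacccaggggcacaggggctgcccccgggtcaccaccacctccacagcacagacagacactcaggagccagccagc
Myh4: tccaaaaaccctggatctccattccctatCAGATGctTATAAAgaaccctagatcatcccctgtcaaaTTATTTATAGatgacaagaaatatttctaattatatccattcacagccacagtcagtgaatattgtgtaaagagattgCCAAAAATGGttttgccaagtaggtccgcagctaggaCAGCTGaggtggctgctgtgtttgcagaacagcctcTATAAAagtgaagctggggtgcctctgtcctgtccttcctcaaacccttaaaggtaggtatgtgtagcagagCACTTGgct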

How the data were processed

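RNA of 38 tumors in 7 groups was sequenced by the study as 3′ end libraries (HT3DGE), 2 technical libraries per tumor in 4 sequencing pools. The authors made the deposited table of expected counts, estimated counts that need not be whole numbers, with a Smart-seq2 pipeline on Terra and analyzed it with DESeq2. The aligner and its build are not given in the sources used here, and 39.704% of nonzero values were not whole. The deposited gene table gave symbols per Ensembl ID, and the deposited sample table gave index tags and pools per library. All 76 columns were matched to samples, with 0 left over. The second technical library of 4T1-CAT alum replicate 3 is listed there with 2 different index tags, and it was used as deposited. Gene positions came from GENCODE M21, and promoters from RefSeq.

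Counts of technical libraries were summed per tumor and rounded. edgeR 4.0.16 (filterByExpr, TMM, quasi-likelihood test; limma 3.58.1, R 4.3.3) compared 2 groups per fit, or 4 for the interaction, with Benjamini-Hochberg adjustment over all genes tested and a threshold of 0.05. Log2 CPM used a prior count of 2. Named members were Myh4, Tnnc2 and Ttn, the 3 members with the smallest p in each comparison, and Acta1, Ckm, Mylpf, Mb, Des, Tnnt1 and Tnni1. The named non-members were the 10 genes with the highest r with the members' mean log2 CPM, among genes with a mean of at least 10 counts. Exact permutation tests were two-sided, and correlations used 100000 permutations. The members and lists were chosen with earlier results of these data known. Marker lists covered other muscle, myogenic, cardiac, smooth muscle, adipocyte, epidermis, fibroblast, endothelial, erythroid, Schwann cell, epithelial and leukocyte genes.

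Alternatives were DESeq2 1.42.0, RLE factors, no filter, a mean of at least 20 counts, a common model of the 7 groups, blocks for replicate number or for pool, either technical replicate by itself, libraries under 0.25 of the median total left out, a prior count of 0.5, and single tumors left out. The code was tested on simulated data. Version 1.17.8 of data.table, Python 3.11.15, numpy 2.4.6, pandas 2.3.3, scipy 1.17.1 and matplotlib 3.10.9 were also used.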

Additional observations from a re-analysis of the deposited data

Results flagged for a closer look

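In 119 group-by-measure sets of 5 or 6 tumors, the gap between the highest or lowest tumor and the next was compared with the group's range. By this rule 15 values lay far from the rest of their set. For independent, normally distributed values the rule would mark about 1 in 20 sets. That rate need not hold here, since some levels rest on few counts and the sets share tumors. The number marked is therefore a description. 5 of the 15 values came from 4T1-CAT alum replicate 5. Its muscle sum was 0.164% of counts, against 0.0611% to 0.0893% in the other 4 tumors of the group. Ttn there was 75.0, against 16.9 to 31.6 CPM in the others of the group, and Neb was 47.5, against 14.6 to 20.6 CPM. Ryr1 was 9.43, against 2.01 to 3.84 CPM, and Des was 4.32, against 0.389 to 1.504 CPM. CT26 alum replicate 1 had Neb at 47.6, against 9.64 to 20.3 CPM in the others, and Trdn at 9.49, against 1.69 to 3.41 CPM.

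In 4T1-control alum replicate 4 Tnnc2 was 146 CPM, against 34.2 to 71.0 CPM in the others of the group, and Mylpf was 55.0, against 24.0 to 33.4 CPM. In 4T1-control alum replicate 2 Trdn was 17.5 CPM, against 1.70 to 6.55 CPM in the others. In 4T1 CAT-ABP + alum replicate 4 Mb was 4.77 CPM, against 0.502 to 1.09 CPM in the others of its group, and in 4T1-CAT CAT-ABP + alum replicate 3 Mb was 1.53 CPM, against 0 to 0.336 CPM. In CT26 alum replicate 4 Tnni1 was 1.76 CPM, against 0.486 to 0.723 CPM in the others, and in 4T1 alum replicate 1 Tnni1 was 1.37 CPM, against 0 to 0.364 CPM. In 4T1 alum replicate 5 Casq1 was 2.09 CPM, against 0 to 0.478 CPM. These Mb, Tnni1 and Casq1 levels, and that of Trdn in 4T1-control alum replicate 2, rest on 4 to 8 counts each. That last tumor, the one with the fewest counts, also holds the highest levels of Myh1 and Tnnc1, from 10 and 3 counts.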

How the results depend on the processing

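Of the values that answer a comparison, 316 under the alternatives kept direction and side of the threshold, 16 passed it anew or were counts that grew over 1.5 times, 8 lost it or were counts that shrank over 1.5 times, and 2 reversed. The muscle sum has no threshold. It was counted as kept where its direction held and it moved by less than the SD pooled over the 2 groups. Of the single-gene and single-pair values, 859 kept both, 8 passed anew, 13 lost the call and 29 reversed. The cause was not tested. DESeq2 called 1 gene in the CT26 catalase comparison, and 282 genes (0.950%) and 5 of 34 members in the 4T1-CAT catalase comparison. Its shares are of all genes with a p, with or without an adjusted p. Without a filter on low counts edgeR called 1 gene for CT26 catalase and 16 for 4T1 catalase. It then called 131 genes (0.460%) and 6 of 34 members for 4T1-CAT against 4T1-control. For catalase in 4T1-CAT it called 47 genes (0.158%) and 4 of 34 members. Between lines it called 6277 genes (21.3%) and 4 of 34 members, and for the interaction 2 genes. Technical replicate 2 alone gave 2849 of 9663 genes (29.5%) and 0 of 10 tested members between lines.

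With the replicate number as a block, edgeR called 3 of 13093 genes (0.0229%) and 1 of 23 members (Tnnc2) for catalase in 4T1-CAT. With it 5365 of 12817 genes (41.9%) and 1 of 19 members (Cox6a2) were called between lines. Under that block Acta1 (0.043) and Tnnc2 (0.078) turned positive in CT26, Ckm (0.26) in 4T1 and Ttn (0.019) in 4T1-CAT, and Mylpf (-0.0097) turned negative between lines. The numbers do not pair tumors by profile: same-number pairs had r from -0.307 to 0.435 in CT26, and over the 5 two-group comparisons the best match was the own number in at most 2 of 5 tumors. With the pool as a block, where 2 alum tumors serve as controls, Ckm in 4T1 was 1.11. Technical replicate 1 alone gave -0.048 for Mylpf in CT26. Without low-depth libraries r of Tnnc1 and Tnnc2 over all tumors was 0.00861. In the 4T1 lines the calls of 3 pairs were then lost, Myh4 and Mylpf (r = 0.370, unadjusted p = 0.0620), Des and Acta1 (r = 0.349, unadjusted p = 0.0798) and Mb and Ckm (r = 0.423, unadjusted p = 0.0321). Atp2a1 and Casq1 in the 4T1 lines (r = 0.5996, unadjusted p = 0.00117) and Des and Acta1 in CT26 (r = 0.651, unadjusted p = 0.0309) then passed.

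Leaving out tumors singly, the muscle sum difference ran -0.0247 to 0.0116 percentage points for catalase in CT26, 0.00556 to 0.0202 in 4T1, 0.0233 to 0.0491 for 4T1-CAT against 4T1-control, -0.0397 to -0.0140 for catalase in 4T1-CAT and -0.00933 to 0.0269 between lines. Genes called ran 0 to 1 for 4T1-CAT against 4T1-control and 0 to 1 for catalase in 4T1-CAT. For the line comparison the count ran from 4823 (37.7%) to 5718 (43.3%), with 1 to 3 members. Log2 fold changes in CT26 ran -0.44 to 0.39 for Acta1, -0.19 to 0.41 for Mylpf, -0.41 to 0.49 for Tnnc2, -0.69 to 0.33 for Ttn, -1.11 to -0.20 for Trdn, -0.52 to -0.23 for Cox6a2 and -1.15 to -0.054 for Ckm. In 4T1 they ran -0.53 to 0.17 for Ckm, -0.13 to 0.50 for Des, -0.29 to 0.072 for Mylpf, 0.055 to 0.71 for Acta1, 0.041 to 0.89 for Myh4, 0.37 to 0.91 for Ttn, 0.33 to 0.74 for Neb and 0.028 to 0.77 for Tnnc2, and in 4T1-CAT -0.31 to 0.36 for Ttn and -1.04 to -0.24 for Myh4. Between lines they ran -0.21 to 0.37 for Mylpf, -0.056 to 0.96 for Ttn and 0.021 to 1.06 for Acta1. Interaction terms ran -0.90 to 0.15 for Acta1, -1.06 to 0.22 for Ckm, -0.064 to 0.53 for Mylpf, -0.94 to 0.27 for Tnnc2, -3.01 to -1.35 for Myh4, -3.55 to -1.43 for Casq1, -1.34 to -0.34 for Ttn and -1.37 to -0.11 for Des.

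Groups had 5 or 6 tumors and many members had few counts, and no estimate was made of the smallest difference within reach. Mb, Tnnt1 and Tnni1 did not pass the filter in any comparison, and edgeR tested them without it. Intervals cover counting error only, since collapsing of PCR copies was not stated. Within the pools of the CT26 tumors there were 2 of the 5 4T1 alum tumors, so line and pool cannot be fully told apart.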
